A study of Caenorhabditis elegans with 16 samples.

Results

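Small RNAs antisense to 72 histone genes of Caenorhabditis elegans were followed in 10 small RNA libraries. The genes were the protein-coding genes whose RefSeq symbol begins with his-, 72 of 20535 protein-coding genes with counts. They comprised 17 H2A, 17 H2B, 15 H3 and 16 H4 genes, 6 H3 variant genes (*his-69* to *his-74*) and 1 H1 gene (*his-24*). The 64 H2A, H2B, H3 and H4 genes left after *his-35*, listed beforehand as an H2A variant, was set apart are called core genes here. Many copies of one type are nearly identical in sequence and share reads, so reads were summed by type before single genes were considered.

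The study asked how CDE-1, a polyuridylation polymerase, affects small interfering RNAs. Each of 10 genotype and sample combinations had 1 library, so within a pair of libraries the genotypes could not be tested, and the only test given is a fit over the 5 pairs together. Total small RNA came from *cde-1(tm936)* and from N2 wild-type young adults. NRDE-3 was immunoprecipitated (IP) from embryos with *cde-1(tm936)*;GFP::NRDE-3 and from embryos with GFP::NRDE-3 alone, and from L3 animals that carried GFP::NRDE-3 with both *eri-1(mg366)* and *cde-1(tm936)* or with *eri-1(mg366)* only. HRDE-1 and WAGO-1 were each immunoprecipitated from young adults that carried GFP::HRDE-1 or GFP::WAGO-1, with *cde-1(tm936)* and without it. Both L3 libraries carry the *eri-1* mutation, so that mutation is shared by the pair and sets it apart from the embryo pair. The tagged Argonautes were expressed from transgenes under their own promoters, whole animals or embryos were used, and all animals were grown at 20 °C. The labels give HT115 bacteria as the food of the L3 animals and OP50 for the others.

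Core histones form the nucleosome around which DNA is wound, and the linker histone H1 binds the DNA that enters and leaves it. Replication-dependent histone genes are repeated in arrays, are transcribed mainly in S phase, and give mRNAs that end in a stem-loop bound by CDL-1 rather than in a poly(A) tail. Replacement variants such as H3.3 are made outside S phase. In C. elegans, RNA-dependent RNA polymerases copy mRNAs into antisense 22G-RNAs, which are loaded on Argonautes. NRDE-3 carries such siRNAs into nuclei of somatic cells, HRDE-1 acts in germline nuclei, and WAGO-1 is found in the germline cytoplasm and P granules. The germline Argonaute CSR-1, for which CDE-1 uridylates 22G-RNAs, is known to act in the maturation of core histone mRNAs.

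The libraries held 5200610 to 9919222 counted reads, of which sense rRNA reads made up 10.2% to 66.1%. Levels are given as reads per 1000000 counted reads other than sense rRNA reads (RPM). Intervals are 95% intervals of the counts, and they cover counting error only, since reads amplified by PCR and counted without molecular identifiers can be copies of 1 molecule. Sense reads on *cid-1*, the name under which *cde-1* is listed, were lower in the *cde-1* library of every pair. They were 0.348 RPM (2 reads) in *cde-1* and 11.5 RPM in control NRDE-3 IP embryos, and 12.0 to 24.5 RPM in the other 4 *cde-1* libraries against 43.5 to 104 RPM in their controls. The L3 NRDE-3 libraries stood apart from the other IPs: 45.7% of their reads in *eri-1;cde-1* and 62.5% in *eri-1* were sense reads of protein-coding genes, against 5.85% to 23.7% in the other 6 IP libraries and 61.4% and 63.5% in total RNA of *cde-1* and N2. The embryonic miRNAs mir-35 to mir-42 summed to 3551 and 3539 RPM in the *cde-1* and control NRDE-3 embryo libraries, against 382 and 275 RPM in the *eri-1;cde-1* and *eri-1* L3 libraries. They were higher still in total RNA of young adults, at 5013 RPM in *cde-1* and 7868 RPM in N2, and so do not mark the embryo libraries alone. Whether this difference bears on the total RNA pair was not tested. The late larval miRNA let-7 had 22.6 and 37.1 RPM in the embryo libraries of *cde-1* and control, against 2004 and 2453 RPM in the L3 libraries of *eri-1;cde-1* and *eri-1*. In young adults it had 38.6 and 29.6 RPM in *cde-1* and control WAGO-1 IPs and 221 and 249 RPM in HRDE-1 IPs. A low let-7 level thus does not mark the embryo libraries alone.

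Antisense reads on histone genes were more abundant in *cde-1* than in control total RNA and in both NRDE-3 IPs, and less abundant in the HRDE-1 and WAGO-1 IPs. Total small RNA had 542 RPM in *cde-1* and 245 RPM in N2 young adults, a ratio of 2.22 (interval 2.09 to 2.36). NRDE-3 IPs of embryos had 5044 RPM in *cde-1* and 1695 RPM in control, a ratio of 2.98 (2.89 to 3.06). NRDE-3 IPs of L3 animals had 8752 RPM in *eri-1;cde-1* and 1636 RPM in *eri-1*, a ratio of 5.35 (5.23 to 5.47). HRDE-1 IPs had 1956 RPM in *cde-1* and 3242 RPM in control, a ratio of 0.603 (0.589 to 0.618). WAGO-1 IPs had 3621 RPM in *cde-1* and 4149 RPM in control, a ratio of 0.873 (0.857 to 0.889). Over all protein-coding genes the same 5 ratios were 1.24, 0.972, 1.31, 1.07 and 1.04, so that the histone sum moved apart from the antisense pool in each pair. Histone genes made up 7.38% of antisense protein-coding reads in the *eri-1;cde-1* L3 library and 1.81% in the *eri-1* library, and 1.14% in the *cde-1* and 0.372% in the control NRDE-3 embryo library.

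**Figure D1:**
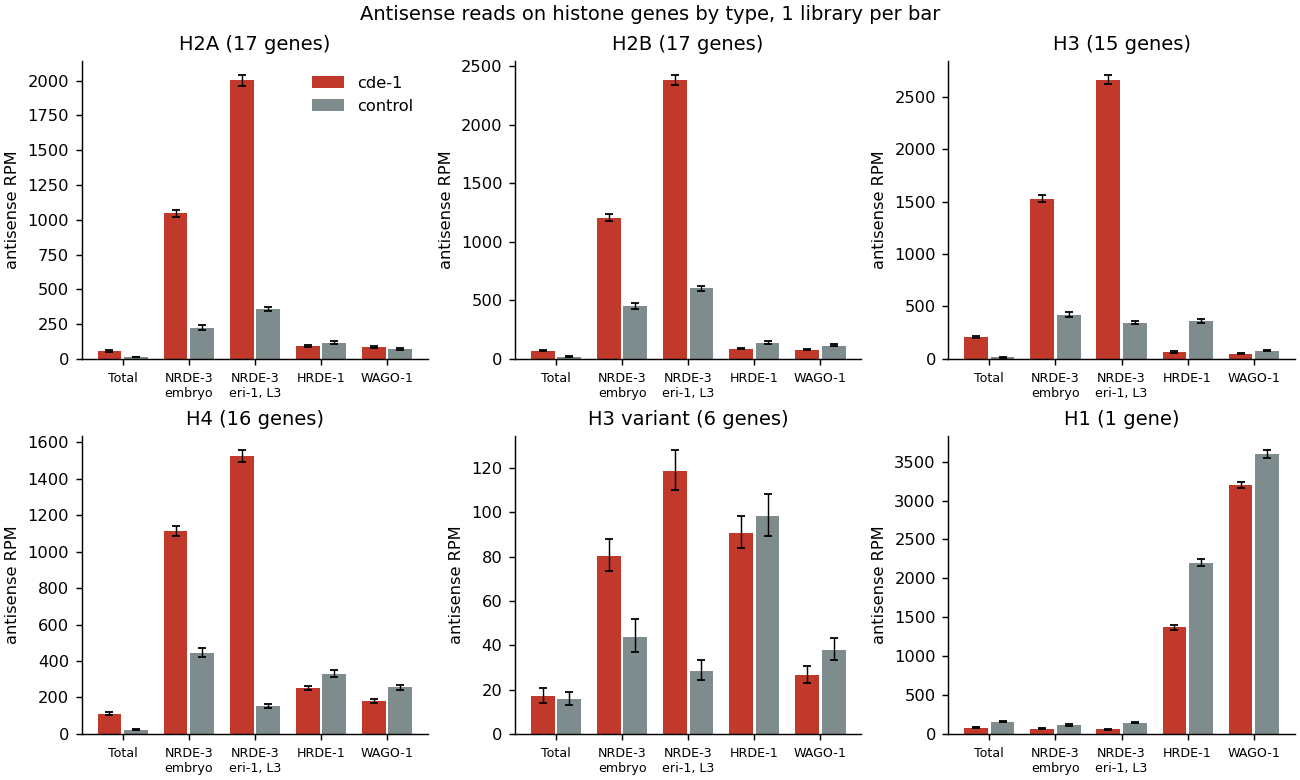
Antisense level (RPM, linear axis from 0) of the summed genes of each histone type in the 5 library pairs, *cde-1* at left in red and control at right in grey, with 95% counting intervals and 1 library per bar. The 4 core types were highest in the *cde-1* NRDE-3 libraries, and H1 was highest in the WAGO-1 libraries.

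The linker histone gene *his-24* held a large part of these sums and behaved differently from the core genes. *his-24* encodes a linker histone H1 and lies on chromosome X (14490094 to 14491119 in WBcel235), with 2 exons and an annotated 3′ UTR. It had 3201 RPM in the *cde-1* and 3596 RPM in the control WAGO-1 IP, 1370 and 2203 RPM in the *cde-1* and control HRDE-1 IPs, 69.4 and 111 RPM in the *cde-1* and control NRDE-3 IPs of embryos, 62.5 and 146 RPM in the *eri-1;cde-1* and *eri-1* NRDE-3 IPs of L3 animals, and 80.8 and 159 RPM in *cde-1* and N2 total RNA. The *cde-1* value was thus the lower one in every pair, with ratios of 0.890 in WAGO-1, 0.622 in HRDE-1, 0.623 in NRDE-3 embryo, 0.427 in NRDE-3 L3 and 0.509 in total RNA, and the interval lay below 1 in each. The gene ranked 28 of 20535 protein-coding genes by antisense reads in the control HRDE-1 IP and 27 in the control WAGO-1 IP. It supplied 6.57% of histone antisense reads in the control NRDE-3 IP of embryos, but 67.9% in the control HRDE-1 IP and 86.7% in the control WAGO-1 IP. Nearly all reads on it in the germline IPs were antisense, 99.8% in *cde-1* and 99.9% in control for HRDE-1 and 99.6% and 99.8% for WAGO-1. With all counted reads as the denominator, rRNA included, the ratio in NRDE-3 embryo was 1.36 rather than 0.623. Sense rRNA made up 25.9% of the *cde-1* and 66.1% of the control library of that pair.

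Core genes were therefore compared apart from *his-24*. Their antisense sum was 439 RPM in *cde-1* and 65.3 RPM in N2 total RNA, a ratio of 6.72 (6.06 to 7.45). It was 4867 RPM in *cde-1* and 1532 RPM in control NRDE-3 IPs of embryos, a ratio of 3.18 (3.08 to 3.28), and 8516 RPM in *eri-1;cde-1* and 1437 RPM in *eri-1* NRDE-3 IPs of L3 animals, a ratio of 5.93 (5.78 to 6.07). The germline IPs went the other way, with 452 RPM in *cde-1* and 906 RPM in control HRDE-1 IPs (ratio 0.499, 0.476 to 0.523) and 335 RPM in *cde-1* and 479 RPM in control WAGO-1 IPs (ratio 0.701, 0.663 to 0.741). By level alone, without a minimum of reads, 63 of 64 core genes were higher in *cde-1* total RNA, and 64 of 64 were higher in *cde-1* in each NRDE-3 pair, where 71%, 45.1% and 53.5% of all protein-coding genes with a read were higher in total RNA, NRDE-3 embryo and NRDE-3 L3. In the HRDE-1 pair 52 of 64 were lower in *cde-1*, and in the WAGO-1 pair 48 of 64 were lower, beside 49.5% and 55.1% of all protein-coding genes with a read. Copies share reads, so these 64 genes are not 64 independent measurements. In bulk RNA a change in the number of cells that hold such siRNAs and a change in their amount per cell cannot be told apart.

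**Figure D2:**
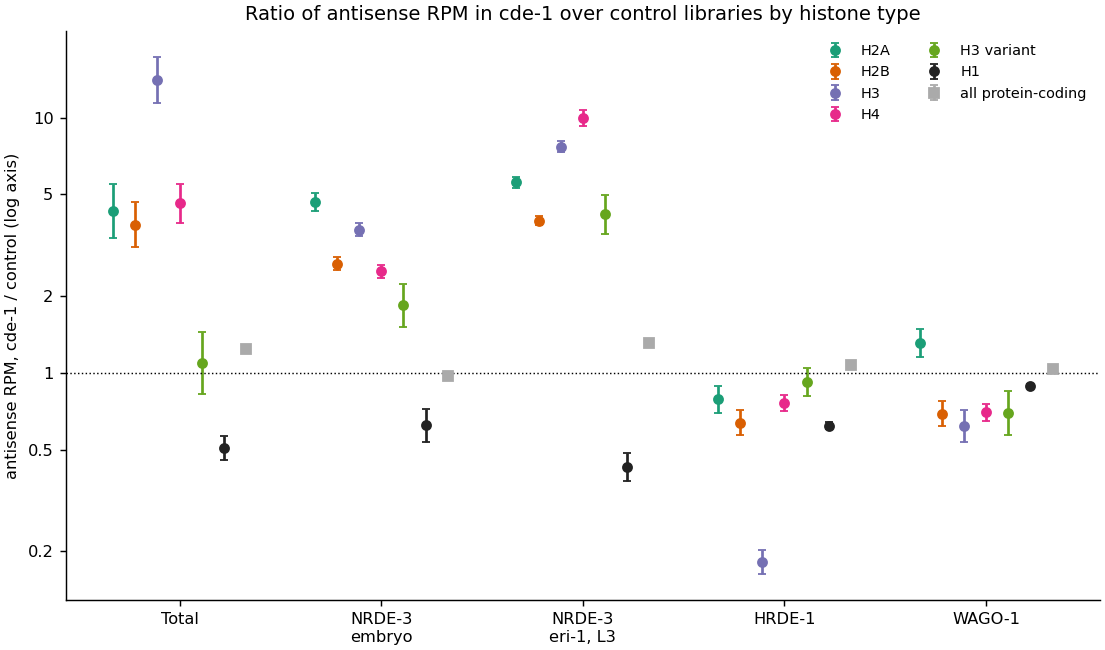
Ratio of antisense RPM in *cde-1* over control (log axis) for each histone type and for all protein-coding genes in the 5 library pairs, with 95% counting intervals. The H2A, H2B, H3 and H4 ratios lie between 2.50 and 14.0 in total RNA and both NRDE-3 pairs and between 0.182 and 1.31 in the HRDE-1 and WAGO-1 pairs.

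H3 genes, which encode the histone whose tail carries the H3K9 methylation linked to nuclear RNAi, had the widest range of ratios. Antisense H3 reads stood at 208 RPM in *cde-1* and 14.8 RPM in N2 total RNA, a ratio of 14.0 (11.4 to 17.2). One gene, *his-45* on chromosome IV (11326588 to 11326998), gave 626 of the 1157 *cde-1* reads and 22 of the 95 N2 reads. Without *his-45* the ratio was 8.36 (6.54 to 10.7). NRDE-3 IPs of embryos had 1526 RPM of H3 reads in *cde-1* and 420 RPM in control, a ratio of 3.64 (3.43 to 3.86). NRDE-3 IPs of L3 animals had 2663 RPM in *eri-1;cde-1* and 346 RPM in *eri-1*, a ratio of 7.70 (7.33 to 8.09). In HRDE-1 IPs, H3 reads stood at 65.1 RPM in *cde-1* and 358 RPM in control, a ratio of 0.182 (0.164 to 0.202), the lowest ratio of any type between a *cde-1* library and its control. There too a single gene held much of the sum, since *his-25* on chromosome II (13824849 to 13825259) had 23 reads in *cde-1* and 825 of 1512 H3 reads in control. Without *his-25* the HRDE-1 ratio was 0.380 (0.336 to 0.428). H3 reads in WAGO-1 IPs stood at 48 RPM in *cde-1* and 77.5 RPM in control, a ratio of 0.620 (0.537 to 0.715), and 0.738 (0.633 to 0.861) without *his-25*.

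H4 genes gave the largest type ratio of the L3 NRDE-3 pair and the smallest core type ratio of the embryo pair. NRDE-3 IPs of L3 animals had 1523 RPM in *eri-1;cde-1* and 153 RPM in *eri-1*, a ratio of 9.94 (9.24 to 10.7). NRDE-3 IPs of embryos had 1115 RPM in *cde-1* and 445 RPM in control, a ratio of 2.50 (2.36 to 2.66). The H4 genes were not alike in the embryo pair. The 3 copies in the chromosome II array (*his-10*, *his-14* and *his-26*) had 133 RPM in *cde-1* and 103 RPM in control, a ratio of 1.29 (1.13 to 1.47), against 2.87 (2.69 to 3.07) for the 13 other copies. In total RNA, H4 reads stood at 111 RPM in *cde-1* and 24.1 RPM in N2, a ratio of 4.62 (3.87 to 5.51). In HRDE-1 IPs they stood at 252 RPM in *cde-1* and 331 RPM in control (ratio 0.762, 0.710 to 0.818), and in WAGO-1 IPs at 179 and 255 RPM in *cde-1* and control (ratio 0.700, 0.649 to 0.756).

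H2A and H2B, which form dimers on the outer faces of the nucleosome, differed in the WAGO-1 pair. H2A reads stood at 55.1 RPM in *cde-1* and 12.8 RPM in N2 total RNA (ratio 4.30, 3.37 to 5.49). They stood at 1046 RPM in *cde-1* and 224 RPM in control NRDE-3 IPs of embryos (ratio 4.67, 4.31 to 5.05), and at 2001 RPM in *eri-1;cde-1* and 358 RPM in *eri-1* NRDE-3 IPs of L3 animals (ratio 5.59, 5.32 to 5.87). In WAGO-1 IPs they stood at 88.4 RPM in *cde-1* and 67.5 RPM in control (ratio 1.31, 1.15 to 1.49), but without *his-35*, which alone had 59 RPM in *cde-1* and 35.8 RPM in control, the ratio was 0.928 (0.759 to 1.13). In HRDE-1 IPs they stood at 90.3 RPM in *cde-1* and 115 RPM in control (ratio 0.788, 0.699 to 0.887), and the ratio without *his-35* was 0.587 (0.504 to 0.685). H2B reads stood at 70.7 RPM in *cde-1* and 18.6 RPM in N2 total RNA (ratio 3.80, 3.10 to 4.67), at 1206 and 451 RPM in *cde-1* and control NRDE-3 IPs of embryos (ratio 2.67, 2.52 to 2.83), and at 2384 and 604 RPM in *eri-1;cde-1* and *eri-1* NRDE-3 IPs of L3 animals (ratio 3.95, 3.80 to 4.11). In the germline IPs H2B reads were lower in *cde-1*, at 88.2 RPM against 138 RPM in control HRDE-1 IPs (ratio 0.639, 0.570 to 0.716) and at 79.1 RPM against 114 RPM in control WAGO-1 IPs (ratio 0.693, 0.618 to 0.777).

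The 6 H3 variant genes include *his-71* and *his-72*, which encode H3.3, the form deposited outside replication. Their sum did not differ beyond counting error in total RNA, with 17.0 RPM in *cde-1* and 15.6 RPM in N2 (ratio 1.09, 0.824 to 1.45). It was 80.3 RPM in *cde-1* and 43.7 RPM in control NRDE-3 IPs of embryos (ratio 1.84, 1.52 to 2.23), and 119 RPM in *eri-1;cde-1* and 28.4 RPM in *eri-1* NRDE-3 IPs of L3 animals (ratio 4.18, 3.49 to 4.99). It was 90.7 RPM in *cde-1* and 98.3 RPM in control HRDE-1 IPs (ratio 0.923, 0.815 to 1.05), and 26.4 RPM in *cde-1* and 37.9 RPM in control WAGO-1 IPs (ratio 0.696, 0.571 to 0.848). Single variants went different ways in the HRDE-1 pair. There *his-72* had 201 reads in *cde-1* and 51 in control (29.5 and 12.1 RPM), and *his-73* had 45 and 123 (6.62 and 29.1 RPM). *his-74* had 256 and 184 reads in *cde-1* and control (37.6 and 43.6 RPM), and *his-71* had 19 and 12 (2.79 and 2.84 RPM). In the same pair *his-70* had 95 reads in *cde-1* and 44 in control. The *cde-1* library held more reads, and by level 2 of the 6 variants were higher in it and 4 lower. In the embryo NRDE-3 pair *his-71* led the variants with 239 reads in *cde-1* and 80 in control. *his-69* had 0 to 4 reads in 9 libraries and 18 reads in the *eri-1;cde-1* L3 library, and *his-70* had 3 reads in *cde-1* and 0 in control NRDE-3 IPs of embryos, too few for a ratio.

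A small array on chromosome V (9544659 to 9547607) holds *his-35*, *his-37* and *his-41*, an H2A, an H4 and an H2B gene. Each of these 3 genes is annotated with 2 exons and a 3′ UTR, whereas among the other 62 H2A, H2B, H3 and H4 genes *his-57* alone has more than 1 exon. Their summed antisense reads stood at 109 RPM in *cde-1* and 88.8 RPM in control HRDE-1 IPs (ratio 1.22, 1.08 to 1.39) and at 130 and 85.7 RPM in *cde-1* and control WAGO-1 IPs (ratio 1.52, 1.36 to 1.70). These were the pairs in which the other 62 core genes had ratios of 0.454 (0.432 to 0.477) and 0.616 (0.579 to 0.654). In total RNA the 3 genes had 16.9 RPM in *cde-1* and 11.6 RPM in N2 (ratio 1.46, 1.08 to 1.98). In NRDE-3 IPs they had ratios of 2.85 (2.06 to 3.95) in embryos and 2.66 (2.32 to 3.05) in L3 animals.

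Genes past a 2-fold difference were counted among those with at least 50 antisense reads in either library, on log2 ratios with 1 read added. In total RNA, 11 of 72 histone genes had enough reads, and 9 were at least 2-fold higher in *cde-1* and 0 lower, where 22.8% of all 3716 protein-coding genes with enough reads were higher and 6.94% lower. Those 9 genes had at most 22 reads in N2 and passed the minimum through the *cde-1* library alone, so that their direction was fixed by the minimum. In NRDE-3 IPs of embryos, 59 of 68 genes were higher and 0 lower, against 27.1% and 21.6% of all genes. Of these 68 genes, 33 had reached 50 reads in the *cde-1* library alone. Of the other 35, chosen by the control library and hence against a rise, 28 were at least 2-fold higher and 0 lower, where 8.14% of all genes with 50 reads in that library were higher and 44.8% lower. In NRDE-3 IPs of L3 animals, 67 of 70 were higher and 1, *his-24*, was lower, against 44.6% and 17.5%. Of the 54 that reached 50 reads in the *eri-1* library, 53 were higher and 1 lower, against 19.7% and 32.1% of all genes. In HRDE-1 IPs, 1 of 27 genes was higher and 9 lower, against 27.7% and 12% of all genes, and in WAGO-1 IPs 0 of 19 were higher and 6 lower, against 15.5% and 16.4%. Of the 21 histone genes with 50 reads in the control HRDE-1 library, 1 was higher and 9 lower, against 24.8% and 15.7%. All 19 genes counted in the WAGO-1 pair had 50 reads in the control library, where 10.6% of all genes were higher and 19.6% lower. Choice by the control library favours a fall, for the histone genes and for all genes. Of these 21 and 19 histone genes, 8 and 7 had reached 50 reads in the control library alone, so that their direction was fixed by the minimum. The median log2 ratio of the histone genes counted was 2.61 in total RNA, 1.72 in NRDE-3 embryo, 2.69 in NRDE-3 L3, -0.54 in HRDE-1 and -0.84 in WAGO-1, beside medians over all genes counted of 0.58, 0.29, 0.84, 0.37 and 0.08. With at least 10 reads in place of 50, the HRDE-1 count was 3 higher and 20 lower of 68 genes, and the WAGO-1 count 1 higher and 14 lower of 63. The share of all genes was not counted at that minimum, so these counts have no background to be read against.

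**Figure D3:**
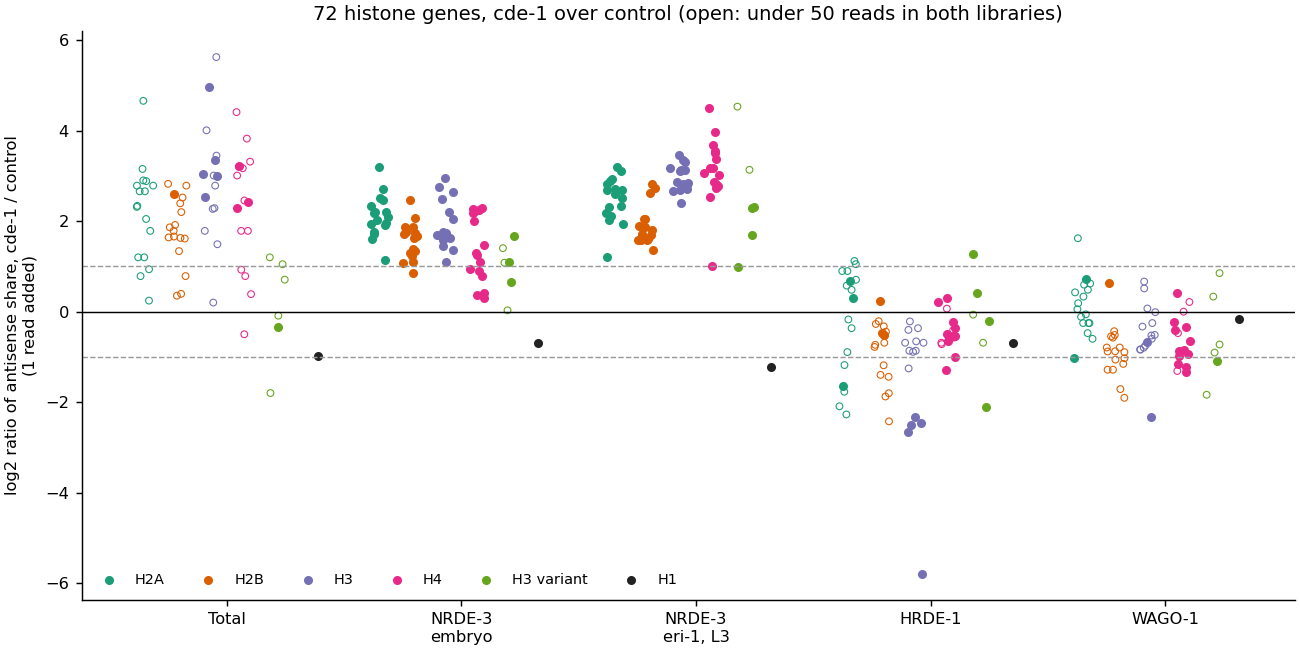
Log2 ratio of the antisense share in *cde-1* over control, with 1 read added, for each of the 72 histone genes in the 5 library pairs, coloured by type. Filled points had at least 50 reads in either library, open points did not, and dashed lines mark a 2-fold difference. In the NRDE-3 pairs 71 of 72 genes lie above 0, and the lowest point of the HRDE-1 pair is *his-25* at -5.79.

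Among genes that reached the minimum of 50 reads, the largest rises and falls differed from pair to pair. In total RNA *his-45* was highest, with 626 reads in *cde-1* and 22 in N2 (log2 4.97), followed by *his-13*, another H3 gene, with 52 and 5 reads (log2 3.34). *his-45* ranked 108 among protein-coding genes by antisense reads in *cde-1* total RNA and 5821 in N2. In NRDE-3 IPs of embryos the H2A gene *his-47* had 608 reads in *cde-1* and 34 in control (log2 3.20), and the H3 gene *his-40* had 336 and 22 reads (log2 2.95). In NRDE-3 IPs of L3 animals the H4 genes *his-18* and *his-56* led, *his-18* with 1131 reads in *eri-1;cde-1* and 45 in *eri-1* (log2 4.51) and *his-56* with 715 and 41 reads (log2 3.98). In HRDE-1 IPs *his-25* fell furthest (log2 -5.79), to 3.38 RPM in *cde-1*, against 195 RPM in control, and the H3 gene *his-32* had 20 reads in *cde-1* and 82 in control (log2 -2.67). The highest log2 ratios of that pair at this minimum were 1.27 for *his-72* and 0.67 for the H2A gene *his-57*, which had 53 reads in *cde-1* and 20 in control and passed through the *cde-1* library alone. In WAGO-1 IPs *his-25* had 22 reads in *cde-1* and 96 in control (log2 -2.33) and *his-18* had 45 and 96 (log2 -1.33), while the highest values at this minimum were 0.72 for *his-35* and 0.62 for *his-41*. Below the minimum, *his-47* had 27 reads in *cde-1* and 7 in control HRDE-1 IPs (log2 1.12), and the H2A gene *his-21* had 10 and 2 reads in *cde-1* and control WAGO-1 IPs (log2 1.62). *his-58*, the H2B gene with the most antisense reads, had 1278 reads in *cde-1* and 273 in control NRDE-3 IPs of embryos, and *his-48*, a second H2B gene, had 1119 and 251.

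A fit over the 5 pairs together asked for a single *cde-1* effect that runs through total RNA and all IPs (edgeR quasi-likelihood test with the pair as a block, 4 residual degrees of freedom, Benjamini-Hochberg adjustment over 6632 genes with at least 50 reads in at least 2 libraries). Of 70 histone genes in the fit 12 were higher in *cde-1* at an adjusted p under 0.05 and 0 lower. Beside them 13.8% and 6.23% of all genes were called, so with all 5 pairs the histone share was close to that of all genes. The 12 were 10 H2A genes, the H3.3 gene *his-72* and the H3 gene *his-40*. Among them *his-21* had a log2 ratio of 2.25 (edgeR adjusted p = 0.00526) and *his-47* one of 2.36 (edgeR adjusted p = 0.00607). *his-24*, which had the lower level in *cde-1* in 5 of 5 pairs, had a log2 ratio of -0.75 and did not pass (edgeR adjusted p = 0.0776). The count of histone genes higher in *cde-1* was 1 of 49 without the NRDE-3 L3 pair and 7 of 64 without the NRDE-3 embryo pair. Over all genes it was 721 of 6408 and 846 of 6499 in these refits. Without total RNA it was 8 of 70, beside 522 of 6279 genes. Without the HRDE-1 pair it was 13 of 70, beside 168 of 5302 genes. Without the WAGO-1 pair it was 23 of 70, beside 768 of 6045 genes. The 5 pairs are different sample types rather than repeats of one, and the H2A copies share reads. Outside NRDE-3 the H2A genes were near the floor, with median levels of 0.469 RPM in N2 total RNA and 1.66 and 1.05 RPM in control HRDE-1 and WAGO-1 IPs. No H2A gene reached 50 reads in the total RNA pair, and 3 and 2 of 17 did in the HRDE-1 and WAGO-1 pairs. Most H2A genes thus entered the fit through the NRDE-3 libraries. In the embryo and L3 NRDE-3 pairs, 33 and 16 histone genes had reached 50 reads in the *cde-1* library alone. The minimum could thus be met by the *cde-1* libraries alone, and for genes that entered this way it favoured a rise.

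By position, histone genes less than 10000 nt apart formed 19 groups, of which the largest held 13 core genes on chromosome II (13817760 to 13828697). This array was where the HRDE-1 pair differed most. Its antisense reads stood at 51.7 RPM in *cde-1* and 355 RPM in control HRDE-1 IPs, a ratio of 0.146 (0.130 to 0.164), against 0.726 (0.687 to 0.767) for the 51 other core genes. Without *his-25* the array had a ratio of 0.304 (0.266 to 0.347). Its 4 H3 genes (*his-9*, *his-13*, *his-25* and *his-42*) had a ratio of 0.0597 (0.0490 to 0.0728), or 0.182 (0.142 to 0.232) without *his-25*, and the 11 H3 genes elsewhere one of 0.521 (0.451 to 0.603). In WAGO-1 IPs the array and the other core genes had ratios of 0.604 (0.505 to 0.723) and 0.712 (0.671 to 0.755). In both NRDE-3 pairs the array rose with the rest, with ratios of 3.05 in the array and 3.21 elsewhere for embryos, and of 6.79 and 5.68 for L3 animals. The array was looked at apart after its values had been seen. Reads of copies that cannot be told apart may have been assigned to other arrays.

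The Argonautes were next compared with each other among libraries with an intact *cde-1* gene. In the sum over all 72 genes NRDE-3 stood below both germline Argonautes, with 1695 RPM in NRDE-3 IPs of embryos, against 3242 RPM in HRDE-1 IPs (ratio 0.523, 0.506 to 0.540) and 4149 RPM in WAGO-1 IPs (ratio 0.409, 0.397 to 0.421). Among core genes NRDE-3 stood above both in RPM, with 1532 RPM against 906 RPM in HRDE-1 IPs (ratio 1.69, 1.62 to 1.76) and 479 RPM in WAGO-1 IPs (ratio 3.20, 3.05 to 3.35). This order of the core genes depended on the denominator. Per counted read, rRNA included, the core ratio of NRDE-3 was 0.705 over HRDE-1 and 1.21 over WAGO-1, and per sense miRNA read it was 0.524 over HRDE-1 and 0.248 over WAGO-1. Per antisense protein-coding read it was 2.28 over HRDE-1 and 4.83 over WAGO-1. HRDE-1 stood above WAGO-1 for core genes in RPM (ratio 1.89, 1.80 to 1.99, but 0.474 per sense miRNA read) and below it for *his-24* (ratio 0.612, 0.598 to 0.628). The NRDE-3 libraries came from embryos and the HRDE-1 and WAGO-1 libraries from young adults, so the Argonaute and the stage cannot be told apart. Over all protein-coding genes, antisense reads had ratios of 0.743 for NRDE-3 over HRDE-1, 0.663 for NRDE-3 over WAGO-1 and 0.892 for HRDE-1 over WAGO-1.

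**Figure D4:**
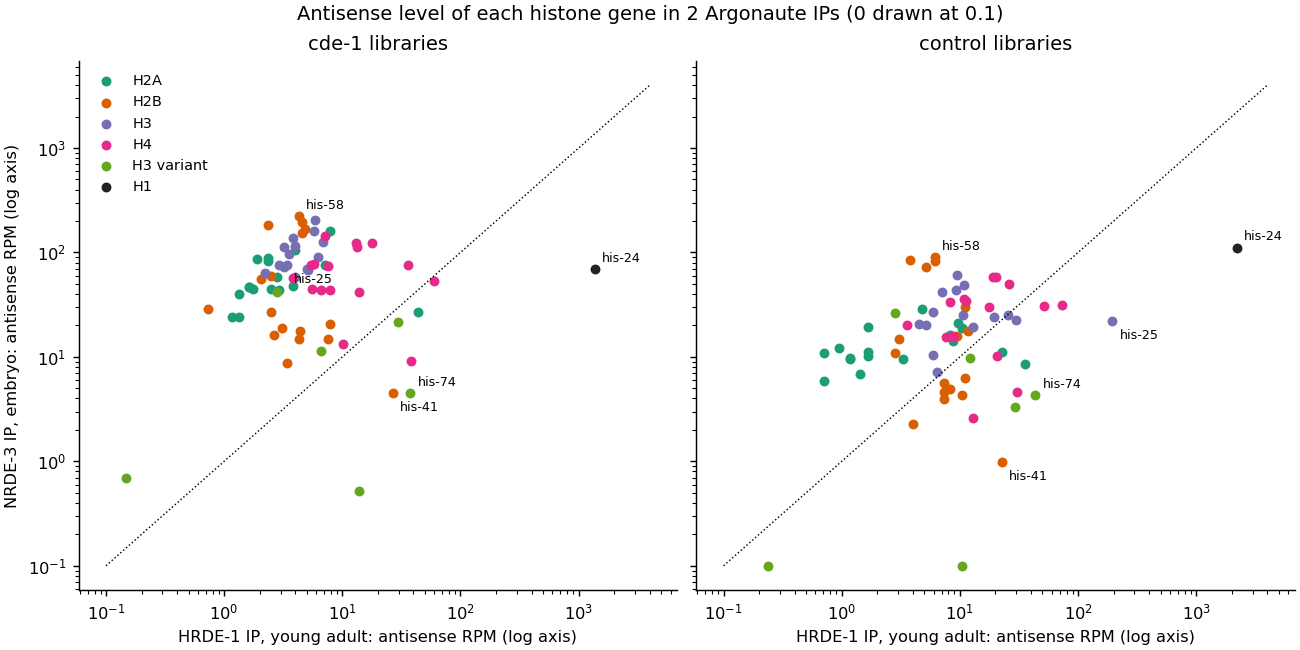
Antisense level of each of the 72 histone genes in NRDE-3 IPs of embryos (vertical, RPM, log axis) against HRDE-1 IPs of young adults (horizontal, RPM, log axis), for the *cde-1* libraries at left and the control libraries at right. The dotted line marks equal levels, a level of 0 is drawn at 0.1, and 64 genes lie above the line in *cde-1* against 48 in control. Of all protein-coding genes with a read, 17.9% in *cde-1* and 22.2% in control were higher in NRDE-3.

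In RPM, the types differed in how far NRDE-3 stood above the germline Argonautes, and a few genes set part of that order. H2B had the largest ratio over HRDE-1, with 451 RPM in NRDE-3 and 138 RPM in HRDE-1 IPs (3.27, 2.97 to 3.60), and H3 the largest over WAGO-1, with 420 RPM in NRDE-3 and 77.5 RPM in WAGO-1 IPs (5.42, 4.86 to 6.03). NRDE-3 over HRDE-1 gave 1.96 (1.74 to 2.20) for H2A, 1.35 (1.25 to 1.45) for H4 and 1.17 (1.09 to 1.26) for H3. Without *his-25* the H3 ratio over HRDE-1 was 2.44 (2.23 to 2.68), with 3.49 for the 11 H3 genes outside the chromosome II array and 0.338 for the 4 within it. NRDE-3 over WAGO-1 gave 3.95 (3.60 to 4.34) for H2B, 3.32 (2.93 to 3.76) for H2A and 1.74 (1.62 to 1.88) for H4. Without *his-35* the H2A ratio was 6.81 (5.78 to 8.03) over WAGO-1, with 6.55 (5.82 to 7.38) for H3 without *his-25*, and 2.73 (2.39 to 3.11) over HRDE-1. Per sense miRNA read the ratio over WAGO-1 was below 1 for each core type, at 0.135 for H4 to 0.421 for H3. The H3 variants were lower in NRDE-3 than in HRDE-1 IPs (0.445, 0.366 to 0.541), and their interval against WAGO-1 included 1 (1.15, 0.928 to 1.43). The genes *his-35*, *his-37* and *his-41* were lower in NRDE-3 IPs, at 14.1 RPM, than in HRDE-1 IPs, at 88.8 RPM, and WAGO-1 IPs, at 85.7 RPM, with ratios of 0.159 (0.116 to 0.218) and 0.165 (0.121 to 0.225). Among H2B genes, 4 copies from separate arrays on chromosome IV (*his-48*, *his-58*, *his-62* and *his-66*) had 329 RPM in NRDE-3 and 21.3 RPM in HRDE-1 IPs, a ratio of 15.4 (12.5 to 19.2), whereas the other 13 copies had 122 and 117 RPM, a ratio of 1.05 (0.915 to 1.20). These 4 copies were singled out after their values had been seen.

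By gene, 23 of 44 histone genes with enough reads were at least 2-fold higher in NRDE-3 than in HRDE-1 IPs and 9 were lower, where 5.58% of all genes were higher and 89.8% lower. Against WAGO-1 IPs 30 of 45 were higher and 6 lower, where 8.64% were higher and 83.1% lower. HRDE-1 over WAGO-1 had 8 of 25 histone genes higher and 0 lower, beside 42.7% and 9.86% of all genes. Most protein-coding genes with enough reads were thus lower in the NRDE-3 library, with median log2 ratios of -3.36 against HRDE-1 and -3.18 against WAGO-1, and the histone genes had medians of 1.16 and 2.48, which are raised by the minimum of reads. Against HRDE-1, 23 of the 44 genes had reached 50 reads in the NRDE-3 library alone. Of the 21 with 50 reads in the HRDE-1 library, 2 were higher and 9 lower, where 1.59% and 93.7% of all genes were. Against WAGO-1, 26 of the 45 had reached 50 reads in the NRDE-3 library alone, and of the 19 with 50 reads in the WAGO-1 library 4 were higher and 6 lower, where 2.95% and 88.3% of all genes were. For HRDE-1 over WAGO-1, 2 of the 19 with 50 reads in the WAGO-1 library were higher and 0 lower, where 24.2% and 13.5% were. The genes at the upper end against HRDE-1 were *his-66*, with 259 reads in NRDE-3 and 16 in HRDE-1 IPs (log2 4.41), and *his-58*, with 273 and 26 (log2 3.82). At the lower end stood *his-24* (log2 -4.30), *his-41*, with 3 and 96 reads (log2 -4.13), *his-74*, with 13 and 184 (log2 -3.25), and *his-25*, with 67 and 825 (log2 -3.13). These genes were named after their values had been seen.

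In the *cde-1* libraries the RPM ratios of NRDE-3 over the germline Argonautes were larger. Core genes had 4867 RPM in NRDE-3, 452 RPM in HRDE-1 and 335 RPM in WAGO-1 IPs, and the ratio of NRDE-3 was 10.8 (10.4 to 11.2) over HRDE-1 and 14.5 (13.9 to 15.1) over WAGO-1. It stayed above 1 under the other denominators, at 3.97 or more over HRDE-1 and 1.63 or more over WAGO-1, with the lowest values per sense miRNA read. H3 was highest, at 23.4 (21.3 to 25.8) over HRDE-1 and 31.8 (28.5 to 35.5) over WAGO-1, and H4 lowest of the core types, at 4.43 (4.20 to 4.67) and 6.23 (5.86 to 6.63). The *his-24* ratio of NRDE-3 over HRDE-1 was 0.0506 in the *cde-1* libraries (0.0458 to 0.0560) and 0.0506 in the control libraries (0.0454 to 0.0564). NRDE-3 exceeded HRDE-1 in level at 61 of 64 core genes in the *cde-1* libraries and at 47 of 64 in the control libraries. Of all protein-coding genes with a read, 17.9% and 22.2% were higher in NRDE-3 in these 2 comparisons. Against HRDE-1, 60 of 71 histone genes with enough reads were at least 2-fold higher in the *cde-1* NRDE-3 library and 5 lower, where 4.47% and 92.8% of all genes were. Of those 71 genes, 52 had reached 50 reads in the NRDE-3 library alone, and of the other 19, 9 were higher and 5 lower, where 1.25% and 96% of all genes were. Against WAGO-1, 62 of 69 were higher and 4 lower, where 8.1% and 77.3% of all genes were, and 57 of the 69 had reached 50 reads in the NRDE-3 library alone. Of the other 12, 5 were higher and 4 lower, where 2% and 83% of all genes were. HRDE-1 over WAGO-1 gave 1.35 (1.28 to 1.42) for core genes in the *cde-1* libraries and 1.89 in the control libraries, and by gene 6 of 21 were at least 2-fold higher and 1 lower in the *cde-1* libraries, beside 54.1% and 9.09% of all genes. Of the 12 with 50 reads in the *cde-1* WAGO-1 library, 0 were higher and 1 lower, beside 35.3% and 13.7%.

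Total small RNA of N2 young adults gives a reference of the same stage for the control HRDE-1 and WAGO-1 IPs. Core genes had 906 RPM in HRDE-1 and 479 RPM in WAGO-1 IPs, against 65.3 RPM in total RNA, ratios of 13.9 (12.5 to 15.3) and 7.33 (6.62 to 8.13). Over all protein-coding genes these ratios were 5.53 and 6.20. For *his-24* the ratios over total RNA were 13.9 (13.0 to 14.8) in HRDE-1 and 22.7 (21.3 to 24.1) in WAGO-1 IPs. For the H3 genes they were 24.1 (19.6 to 29.7) and 5.22 (4.18 to 6.52), or 12.5 (9.99 to 15.8) and 4.68 (3.68 to 5.95) without *his-25*. By gene, 21 of 21 histone genes with enough reads were at least 2-fold higher in HRDE-1 IPs than in total RNA, where 83.6% of all genes were higher and 5.62% lower. In WAGO-1 IPs 19 of 20 were higher, where 64.9% of all genes were higher and 13.5% lower. Of these genes 19 of 21 and 18 of 20 had reached 50 reads in the IP library alone, so that their direction was fixed by the minimum. No total library was made from embryos or from *eri-1* L3 animals in the set analysed, so NRDE-3 IPs were not set against total RNA.

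Sense reads match the mRNA itself and can include its breakdown products. They went apart from antisense reads in each pair but WAGO-1, where both were lower in *cde-1*. Histone sense reads stood at 8470 RPM in *cde-1* and 10263 RPM in N2 total RNA, a ratio of 0.825 (0.816 to 0.835), at 473 and 1000.2 RPM in *cde-1* and control NRDE-3 IPs of embryos, a ratio of 0.473 (0.449 to 0.498), and at 2013 and 3135 RPM in *eri-1;cde-1* and *eri-1* NRDE-3 IPs of L3 animals, a ratio of 0.642 (0.627 to 0.658). The HRDE-1 pair had a ratio of 1.01 (0.976 to 1.05) and the WAGO-1 pair one of 0.796 (0.771 to 0.821). Summed over every protein-coding gene, the ratio of sense reads was 0.968 in total RNA, 0.464 and 0.731 in the embryo and L3 NRDE-3 pairs, 0.953 in HRDE-1 and 0.905 in WAGO-1. The sense share thus fell in NRDE-3 embryo about as far for histone genes as for all genes, and the part of this change in the histone result was not tested.

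Antisense reads made up a larger share of histone reads in *cde-1* than in control libraries of total RNA and NRDE-3. The share was 6.02% in *cde-1* and 2.33% in N2 total RNA, 91.4% and 62.9% in *cde-1* and control NRDE-3 IPs of embryos, and 81.3% and 34.3% in *eri-1;cde-1* and *eri-1* NRDE-3 IPs of L3 animals. Over all protein-coding genes these shares were 18.3% and 14.9%, 88.3% and 78.3%, and 20.6% and 12.6%. HRDE-1 IPs had 61.5% in *cde-1* and 72.8% in control, and WAGO-1 IPs 76.5% in *cde-1* and 74.7% in control. Without *his-24* the germline IPs held more sense than antisense reads on histone genes. Antisense reads then made up 32.5% and 46.3% in *cde-1* and control HRDE-1 IPs and 27.6% and 28.4% in *cde-1* and control WAGO-1 IPs. Of core gene reads they made up 27.6% and 43.7% in *cde-1* and control HRDE-1 IPs. For WAGO-1 IPs the core values were 23.9% in *cde-1* and 26.2% in control. By type, the share for H3 was 27.4% (25.3% to 29.6%, Wilson interval) in *cde-1* and 68.4% (66.4% to 70.3%) in control HRDE-1 IPs. For H4 it was 76.4% (75.6% to 77.2%) in *eri-1;cde-1* and 14.8% (13.9% to 15.8%) in *eri-1* NRDE-3 IPs of L3 animals.

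**Figure D5:**
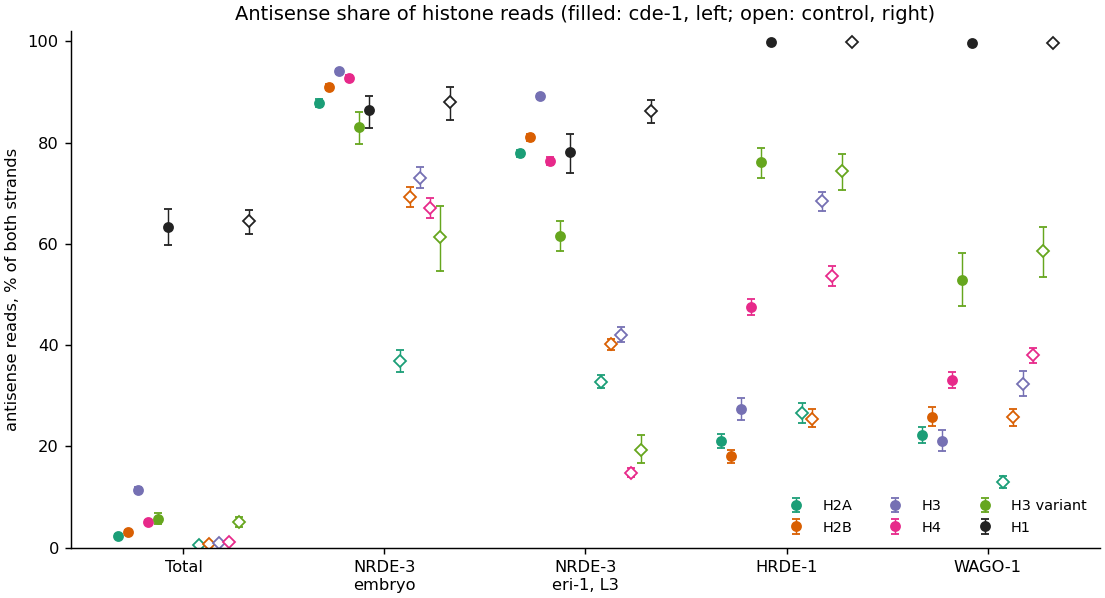
Antisense reads as a percentage of both strands for each histone type, with Wilson 95% intervals, *cde-1* at left as filled circles and control at right as open diamonds. The core types lie at 1.00% or below in N2 total RNA and between 87.9% and 94.1% in the *cde-1* NRDE-3 library of embryos, while H1 lies above 99% in the HRDE-1 and WAGO-1 libraries.

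Other histone genes and histone partners, taken from lists drawn up with earlier results of these data known, included genes that were higher in *cde-1* and genes that were lower. Of 12 histone genes with other names (the H1 genes *hil-1* to *hil-8*, the H2A.Z gene *htz-1*, the sperm H2A gene *htas-1* and the CENP-A genes *hcp-3* and *cpar-1*), 1 of 5 with enough reads was at least 2-fold higher in *cde-1* and 1 lower in total RNA. For NRDE-3, 1 of 4 was higher and 0 lower in embryos, and 1 of 5 higher and 1 lower in L3 animals. In the HRDE-1 pair 3 of 8 were higher and 2 lower, and in the WAGO-1 pair 0 of 7 were higher and 2 lower. The shares of all genes to set beside these and the following lists are those above, 22.8% higher and 6.94% lower in total RNA, 27.1% and 21.6% in NRDE-3 embryo, 44.6% and 17.5% in NRDE-3 L3, 27.7% and 12% in HRDE-1 and 15.5% and 16.4% in WAGO-1, and lists of this size give no more than single genes. The H1 gene *hil-3* had 689 reads in *cde-1* and 1809 in control HRDE-1 IPs (log2 -2.08) and 819 and 3031 in WAGO-1 IPs (log2 -2.14). The centromeric histone gene *hcp-3* had 3229 reads in *cde-1* and 553 in control HRDE-1 IPs (log2 1.86). Of 7 histone chaperone and assembly genes, *unc-85*, *hira-1* and *lin-53* were at least 2-fold higher in the *cde-1* HRDE-1 library, with log2 ratios of 1.96, 1.93 and 1.38. Of that list 1 of 5 was higher in total RNA (*hira-1*, log2 1.11), 2 of 3 in NRDE-3 L3 (*hira-1*, 2.47, and *unc-85*, 1.28), 0 of 1 in NRDE-3 embryo and 0 of 2 in WAGO-1, and 0 were lower in any of the 5 pairs. Antisense reads on *cdl-1*, which encodes the stem-loop binding protein, had log2 ratios of 0.44 in total RNA, 0.23 in NRDE-3 L3, 0.31 in HRDE-1 and -0.49 in WAGO-1, all under 2-fold. In a CSR-1 pathway list of 5 genes, 1 of 4 with enough reads was higher in total RNA, 1 of 1 in NRDE-3 embryo, 3 of 4 in NRDE-3 L3, 3 of 5 in HRDE-1 and 2 of 5 in WAGO-1, and 0 were lower. Its Argonaute gene *csr-1* was at least 2-fold higher in *cde-1* in all 5 pairs, with 1326 and 704 reads in *cde-1* and N2 total RNA (log2 1.11), 204 and 45 in NRDE-3 embryo (1.24), 621 and 123 in NRDE-3 L3 (2.21), 5322 and 1025 in HRDE-1 (1.69) and 2056 and 387 in WAGO-1 (2.15). The RNA-dependent RNA polymerase gene *ego-1* had log2 ratios of 0.94, 2.03, 1.52 and 1.45 in total RNA, NRDE-3 L3, HRDE-1 and WAGO-1.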

How the data were processed

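Per the labels and the study's methods, small RNAs of 18 to 30 nt were cloned and mapped to the WS243 transcriptome. Mapping used Bowtie2 at its default settings (version not given in the sources used here), and reads were counted with Perl scripts. The paper describes a protocol that does not need a 5′ phosphate for the Argonaute IPs. It does not state this for total small RNA, so ratios of IP over total RNA may also hold a difference in cloning, which was not tested. The deposited files hold raw counts per transcript, sense and antisense, for 10 libraries. At its default Bowtie2 reports 1 alignment per read, so reads of near-identical histone copies are spread over them, and type sums were computed first. Each library had 1 to 3 rows with no class, which held no more than 0.00152% of its reads and were dropped.

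The file headers carry no his- locus, so the members were found by sequence name through RefSeq symbols of WBcel235 (72 genes, 75 transcripts). The members, lists and types were chosen with earlier results of these data known. For 7 of 24 rRNA features the antisense column held most reads in every library, and the 2 columns were exchanged before sense rRNA was removed, a choice made from the data. Ratios of shares have log-normal 95% intervals and shares have Wilson intervals, computed from the counts. With 1 library per group no test was made within a pair. An edgeR quasi-likelihood fit over the 5 pairs, with the pair as a block, was added after the data were seen, and its p-values measure the spread between pairs of different sample types, not between animals or cultures.

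Named were every type sum, the H1 and variant genes, the 5 members with the most antisense reads over all libraries, and the 2 largest rises and falls in each *cde-1* pair. A planned rule on protein identity, a check of reads unique to 1 copy and the printing of sequences could not be carried out with the reference tables at hand. The library titled with allele tm939 was taken as tm936, as in its genotype label. Alternatives were 4 other denominators, TMM (edgeR 4.0.16) and median-of-ratios (DESeq2 1.42.0) scaling factors, other minimums of reads, 10 reads added, and the exclusion of *his-24* or of non-core genes. A table of 26S rRNA tails with 6 value columns was not used. Scripts ran in Python 3.11.15 (numpy 2.4.6, pandas 2.3.3) and R 4.3.3, and were tested on simulated data.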

Additional observations from a re-analysis of the deposited data

Results flagged for a closer look

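The effect of *cde-1* went in opposite directions in NRDE-3 IPs of embryos and HRDE-1 IPs of young adults, for the histone sum and for each core type. The ratios of *cde-1* over control were 2.98 in NRDE-3 and 0.603 in HRDE-1 IPs for all histone genes, 4.67 and 0.788 for H2A, 2.67 and 0.639 for H2B, 3.64 and 0.182 for H3, and 2.50 and 0.762 for H4. Each side is 1 pair of libraries, so the difference between the Argonautes was not tested, and the Argonaute and the stage cannot be told apart.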

How the results depend on the processing

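Each group has 1 library and no replicate number, so within a pair no library could be left out. The fit over the 5 pairs with the pair as a block was chosen after seeing the data. It called 12 of 70 histone genes, beside 913 of 6632 genes higher and 413 lower. The histone count was 1 to 23 when each pair was left out in turn, and the counts of all genes are given above. Intervals cover counting error only, and of the 72 genes 17 had at least 10 antisense reads in all 10 libraries, so single genes are uncertain in total RNA and in the germline IPs. Of 135 alternative values for the 30 type ratios between *cde-1* and control, 86 stayed within the interval of the value reported, 47 moved outside it and 2 changed direction. The causes were not tested. The 2 were H1 in NRDE-3 embryo, at 1.36 with all counted reads as the denominator, and H2A in WAGO-1, at 0.928 without *his-35*. Leaving out *his-25*, *his-35* or *his-45* and the other denominators for core genes between Argonautes were chosen after seeing the data.

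For the sum of all histone genes, the ratio of *cde-1* over control kept its direction in each of the 5 pairs under each alternative run. Per counted read, rRNA included, it was 2.00 in total RNA, 6.51 in NRDE-3 embryo and 4.94 in NRDE-3 L3. With antisense protein-coding reads it was 1.79 in total RNA, 4.08 in NRDE-3 L3, 0.563 in HRDE-1 and 0.839 in WAGO-1. With sense miRNA reads it was 3.70 in NRDE-3 embryo, 4.88 in NRDE-3 L3, 0.630 in HRDE-1 and 0.752 in WAGO-1. With rRNA columns as deposited it was 3.50 in NRDE-3 embryo. Without *his-24* it was 5.37, 3.14, 5.83, 0.564 and 0.762 in total RNA, NRDE-3 embryo, NRDE-3 L3, HRDE-1 and WAGO-1, and with core genes alone 6.72, 3.18, 5.93, 0.499 and 0.701.

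The ratios between Argonautes over all histone genes reversed without *his-24*, to 1.52 for NRDE-3 over HRDE-1, 2.87 for NRDE-3 over WAGO-1 and 1.88 for HRDE-1 over WAGO-1, and with core genes alone, to 1.69, 3.20 and 1.89. The core ratios themselves fell below 1 per counted read for NRDE-3 over HRDE-1 (0.705), and per sense miRNA read for all 3 (0.524, 0.248 and 0.474). In the same order the ratios over all histone genes were 0.218, 0.154 and 0.707 with all counted reads. Those all-histone ratios were 0.703, 0.616 and 0.876 with antisense protein-coding reads, and 0.162, 0.0317 and 0.196 with sense miRNA reads. With rRNA columns as deposited they were 0.440 for NRDE-3 over HRDE-1 and 0.340 for NRDE-3 over WAGO-1.

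The count of histone genes past 2-fold in either direction in total RNA was 9 as reported, 52 with at least 10 reads, 57 with no minimum and 1 with at least 200 reads. In HRDE-1 it was 10 as reported, 23 with at least 10 reads, 23 with no minimum and 3 with at least 200. In WAGO-1 it was 6 as reported, 15 with at least 10 reads, 16 with no minimum, 0 with at least 200 and 3 with median-of-ratios scaling. In both NRDE-3 pairs each alternative gave a count within 1.5 times that reported. All protein-coding genes were not counted under these alternatives. The counts thus show how far the histone count depends on the setting, and not how histone genes compare with other genes. TMM scaling moved the median log2 ratio over all genes to 0.09 in total RNA (0.58 as reported), 0.58 in NRDE-3 embryo (0.29) and L3 (0.84), 0.41 in HRDE-1 (0.37) and 0.20 in WAGO-1 (0.08), and the histone medians to 2.12, 2.02, 2.44, -0.50 and -0.73.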

Other observations

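In NRDE-3 IPs of L3 animals the H3 gene *his-45* ranked 13 by antisense reads among 20535 protein-coding genes in *eri-1;cde-1* (1871 reads) and 282 in *eri-1* (198 reads). In HRDE-1 IPs the same gene had 40 reads in *cde-1* and 40 in control, and ranked 7181 and 5993. Equal reads are a lower level in *cde-1* here, since that library had 6802463 reads other than sense rRNA and the control 4222811. Of the 72 histone genes 68 had at least 1 antisense read in all 10 libraries, and 4 had 0 reads in at least 1 library.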
